A study of Mus musculus with 6 samples.

Results

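The matricellular genes Postn, Tgfbi, Tnc, Tnxb, Thbs1, Thbs2, Thbs3, Sparc and Spp1 were followed in mouse embryonic fibroblasts (MEFs, connective tissue cells cultured from embryos). They were found by symbol, ignoring case, and all 9 were present among 18134 gene names, each on a single row of the count and FPKM tables. Total RNA was sequenced from 3 libraries whose genotype is given as Ufl1-KO and from 3 control libraries given as NC, which the labels leave unexplained. Ufl1 encodes the ligase of UFMylation, the attachment of the small ubiquitin-like protein UFM1 to other proteins. Knockdown and hypoxia for 24 h appear in the series title, but each library is labelled by cell type and genotype alone, so the libraries are compared by genotype and nothing is said of oxygen. The labels name no clone and no separate cultures, so p-values reflect variation among these particular libraries, possibly only technical, and a difference between cell lines cannot be told apart from genotype.

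Matricellular proteins are secreted into the extracellular matrix but serve less as its scaffold than as signals between matrix and cell. They bind collagens, fibronectin and growth factors on one side and integrins, CD44, CD36, CD47 or syndecans on the other. In fibroblasts they are known for changing adhesion, for helping collagen fibrils to assemble and for their induction in wound repair and fibrosis, where TGF-beta is a main inducer of several of them.

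Counts summed to 15887011 to 21831860 per library. Ufl1 itself, which checks the labels, averaged 3.81 ± 0.76 CPM (read counts scaled to a common library size after TMM normalization, which balances libraries on their typical gene) in Ufl1-KO libraries and 25.6 ± 2.33 CPM in NC libraries (SD, n = 3 each). That is a log2 fold change of -2.75 (SE 0.15) at an edgeR adjusted p of 1.34e-06. NC replicate 1 stood apart from the other NC libraries, with a median distance per gene of 0.222 on the log2 CPM scale, against 0.151 and 0.122 for NC replicates 2 and 3 and at most 0.082 for any Ufl1-KO library. Fibroblast markers were present (10 of 11 passed the low-count filter), but the surface marker Thy1 stayed under 1 CPM in the mean of both groups and Lum was at or near 0. Of those 10, 8 fell and 1 rose in Ufl1-KO. Over all 12224 genes tested, 33.4% fell and 33.3% rose, the shares to set beside each marker count given here. The summed level of all 11 fibroblast markers ran from 6269.9 to 6489.8 CPM in Ufl1-KO and from 11623 to 12420 CPM in NC. Vim and Col1a1 gave most of this sum. Col1a1, Col1a2, Col3a1 and Dcn, all lower, also belong to the matrix partners described further on, so these lists are not separate observations. The summed markers of other cell types were 5.94 to 6.90 CPM in Ufl1-KO and 4.95 to 7.63 CPM in NC for endothelium (1 of 3 tested fell), and 837 to 860.5 CPM in Ufl1-KO and 1265 to 1338 CPM in NC for epithelium (1 rose and 2 fell of 5, with Krt18 and Krt19 giving most of the sum). They were 370 to 379 CPM in Ufl1-KO and 430 to 493 CPM in NC for smooth muscle (1 rose and 4 fell of 6), and 45.0 to 48.0 CPM in Ufl1-KO and 22.1 to 47.8 CPM in NC for cartilage (1 rose and 1 fell of 2). Tie1, Emcn and Hapln1 were at 0 throughout. The endothelial marker that fell, Pecam1, averaged 0.123 CPM in Ufl1-KO and 0.917 CPM in NC and passed the low-count filter through NC. The part of these marker differences in the changes of the matricellular genes was not tested. In cultures measured in bulk, fewer cells of a kind and less RNA per cell cannot be told apart.

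In Ufl1-KO cells the matricellular genes split into 1 with a large increase, 5 that fell and 3 with small or uncertain differences. Spp1 (osteopontin) was 5.85-fold higher, while Postn (periostin) was 21.6-fold lower, and Tgfbi, Tnc, Sparc and Thbs1 were 1.79- to 2.76-fold lower. By edgeR's quasi-likelihood test over all genes (adjusted p under 0.05), 2 of the 9 rose and 5 fell, where 66.7% of the 12224 genes tested were called, 33.3% higher and 33.4% lower. All 9 passed the low-count filter. A count of 7 called among 9 is close to that share and is no result about these genes as a set. When the test asked for more than a 1.5-fold change, 1 of the 9 (Spp1) was higher and 5 were lower, where 22.9% of all genes were called. Called and at least 2-fold lower were 3 of the 9 (Postn, Tgfbi and Tnc), against 10.1% of all genes, and called and at least 2-fold higher was 1 (Spp1), against 7.19%. The median log2 fold change was -0.84 over the 9 genes and 0.00397 over all genes tested. Groups did not overlap in CPM for 6 of the 9, as for 71.7% of all genes. With library size in place of TMM scaling the calls over all genes shifted from 4069 higher and 4088 lower to 5365 higher and 3119 lower, with the median of all genes at 0.18. Of the 9 genes, 3 were then higher and 5 lower.

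**Figure D1:**
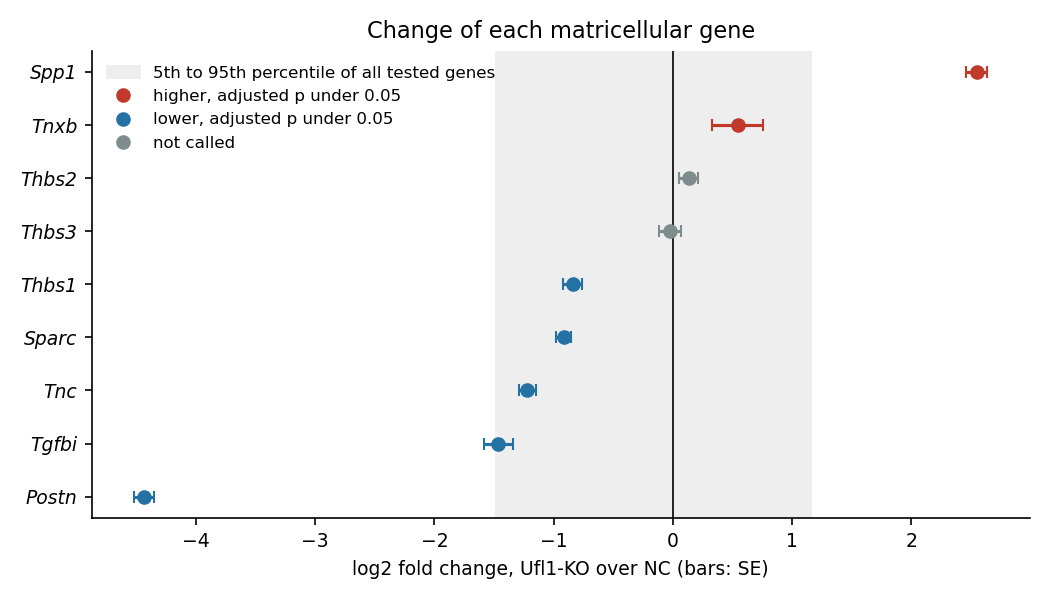
Log2 fold change of each matricellular gene, Ufl1-KO over NC, from the fit across all genes (3 libraries per group). Bars are standard errors, colours give the call, and the grey band spans the 5th to 95th percentile of all tested genes (-1.49 to 1.16). Postn and Spp1 lie outside the band on opposite sides, at -4.43 and 2.55, and Tgfbi lies at its lower edge.

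Periostin and the protein of Tgfbi (TGF-beta-induced protein) are relatives built from fasciclin domains. Both bind integrins and collagen, and periostin helps lysyl oxidase to cross-link collagen. Postn lies on chromosome 3 at 54361109 to 54391037 on the plus strand (mm10, GENCODE M21) and is protein-coding. It had 16.5, 15.3 and 15.7 CPM in the Ufl1-KO libraries, against 316, 349 and 363 CPM in the NC libraries. All 3 Ufl1-KO libraries were far below the lowest NC library. Behind these values stood counts of 381, 280 and 348 for the Ufl1-KO libraries, against 5254, 6420 and 5328 for the NC libraries. The log2 fold change was -4.43 ± 0.08 (SE) with an edgeR adjusted p of 1.34e-08. Ufl1-KO libraries held 4.63% of the mean NC level. Among the 12224 genes tested, Postn ranked 16 from the lowest fold change.

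Tgfbi lies on chromosome 13 at 56609523 to 56639562 on the plus strand. It had 36.1, 33.9 and 37.7 CPM in Ufl1-KO libraries, against 83.3, 96.5 and 117 CPM in NC libraries. The groups did not overlap, although the NC libraries spread widely (coefficient of variation 17.2%, against 5.36% in Ufl1-KO). On the log2 scale Ufl1-KO differed from NC by -1.46 (SE 0.12), with an edgeR adjusted p of 1.05e-05. The ratio of Postn to Tgfbi did not overlap between the groups. Postn stood at 0.365 to 0.432 times the FPKM of Tgfbi in Ufl1-KO libraries and at 2.84 to 3.4 times in NC libraries. FPKM, the deposited level scaled by gene length and library size, is used here wherever levels of different genes are set side by side. An exact two-sided permutation test of the log ratio gave p = 0.1, and no smaller p can be had with 3 libraries per group.

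Osteopontin, the product of Spp1, is a phosphorylated glycoprotein with an RGD site that binds alpha v integrins, and it also binds CD44. It is known from bone, from macrophages and as a secreted cytokine-like protein of activated fibroblasts. Spp1 lies on chromosome 5 at 104435118 to 104441050 on the plus strand. It had 990.2, 1061 and 942 CPM in Ufl1-KO libraries, against 158, 162 and 191 CPM in NC libraries. On the same strand Gm42793 overlaps 1252 bases of Spp1 and was not analysed here. Every Ufl1-KO library was above every NC library. edgeR fitted a log2 difference of 2.55 (SE 0.09) at an adjusted p of 1.94e-07, which placed Spp1 at rank 32 from the highest fold change. Among osteoblast markers, Bglap and Dmp1 were at 0 in all libraries, and Alpl, Bglap2 and Ibsp had a mean under 0.1 CPM in both groups. Runx2 had 40.1 ± 1.55 CPM in Ufl1-KO libraries and 43.7 ± 9.37 CPM in NC libraries. It was not called (log2 fold change -0.12, edgeR adjusted p = 0.47). Sp7 was lower, with means under 1 CPM in both groups, and passed the low-count filter through NC. The summed level of the 7 osteoblast markers ran from 38.5 to 41.5 CPM in Ufl1-KO and from 34.1 to 52.1 CPM in NC. Of the 7 macrophage markers 4 were tested, of which 3 fell and 1 (Cd14) rose, where 33.4% of all genes tested fell and 33.3% rose. The sum over all 7 was 38.3 to 43.0 CPM in Ufl1-KO and 45.2 to 50.5 CPM in NC, and the defining genes Ptprc, Adgre1 and Itgam had means under 0.5 CPM in both groups.

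SPARC (osteonectin) is a collagen-binding glycoprotein that takes part in procollagen handling and counters cell adhesion. Sparc spans 55394500 to 55423183 of chromosome 11 (minus strand). It had 989, 1005 and 1002 CPM in Ufl1-KO libraries, against 1739.5, 1968 and 1942 CPM in NC libraries. The groups did not overlap, and the coefficient of variation was 0.876% in Ufl1-KO libraries and 6.64% in NC libraries. The log2 fold change was -0.91 ± 0.06 (SE) with an edgeR adjusted p of 3.76e-06, a level of 53.0% of NC.

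The start regions of Spp1 and Postn, the genes with the largest increase and the largest decrease, are shown with that of Sparc, the most abundant of the genes that fell. RefSeq windows (GRCm38.p6) were found for 8 of the 9 genes. Where a gene had several windows, the one at the annotated start of its main transcript was used. The 250 bases before the RefSeq start are printed 5′ to 3′ on the strand of the gene, at chr5:104434861-104435110 (plus) for Spp1, chr3:54360857-54361106 (plus) for Postn and chr11:55420081-55420330 (minus) for Sparc. Capitals mark matches to the motifs searched.
Spp1: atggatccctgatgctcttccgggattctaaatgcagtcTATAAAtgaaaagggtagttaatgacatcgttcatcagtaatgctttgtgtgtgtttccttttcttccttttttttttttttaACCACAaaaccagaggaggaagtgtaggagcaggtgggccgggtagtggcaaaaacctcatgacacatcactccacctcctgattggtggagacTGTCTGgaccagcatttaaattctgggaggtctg
Postn: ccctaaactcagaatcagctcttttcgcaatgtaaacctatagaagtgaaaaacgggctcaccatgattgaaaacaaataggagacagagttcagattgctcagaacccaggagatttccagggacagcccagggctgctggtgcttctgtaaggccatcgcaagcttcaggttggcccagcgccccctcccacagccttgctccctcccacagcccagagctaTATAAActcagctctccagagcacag
Sparc: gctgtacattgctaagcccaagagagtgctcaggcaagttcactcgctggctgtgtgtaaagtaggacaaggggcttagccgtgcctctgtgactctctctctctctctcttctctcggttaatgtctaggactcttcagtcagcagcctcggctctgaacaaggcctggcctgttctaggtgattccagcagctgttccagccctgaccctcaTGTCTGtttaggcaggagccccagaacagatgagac
Both strands were searched for 7 motifs, and the capitals do not overlap in these windows. The TATA box letters TATAAA stood 26 bases before the Postn start and 211 bases before the Spp1 start, counted to the first base of the match. They occurred in 4 of the 8 genes and in 12.4% of the 32851 windows in the table. The SMAD letters CAGACA, in reverse as TGTCTG, lay 36 bases before the Sparc start and 34 bases before the Spp1 start, although these genes changed in opposite directions. They occurred in 3 of 8 genes and in 17.1% of all windows. Spp1 also held the RUNX letters TGTGGT in reverse (1 of 8 genes, 14.1% of windows). AP-1 (TGANTCA, 6.75% of windows) matched once, in Tnxb. The hypoxia response core ACGTG (16.6%), the TEAD core GGAATG (12.6%) and the E-box CATATG (3.46%) matched in 0 of 8. A match is a description of letters in this window and no test was run on these shares.

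Tenascins are large multimeric glycoproteins. Tenascin-C, encoded by Tnc, is made in development and wound repair and loosens adhesion to fibronectin, whereas tenascin-X, encoded by Tnxb, is a matrix protein of mature connective tissue that supports collagen fibrils. Tnc spans 63959785 to 64047015 of chromosome 4 (minus strand). It had 573, 585 and 576 CPM in Ufl1-KO libraries, against 1246, 1319 and 1473 CPM in NC libraries. On the opposite strand 8030451A03Rik overlaps 67162 bases of the gene and was not analysed here. Every Ufl1-KO library was below every NC library, and the log2 fold change was -1.22 ± 0.07 (SE) with an edgeR adjusted p of 1.6e-06.

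Tnxb, listed as TNXB in the tables, spans 34670535 to 34719815 of chromosome 17 (plus strand) and was scarce. The length implied by its counts and FPKM was 12607 to 12773 bases, against 12209 bases for the exons of mouse Tnxb. For each other gene of the set the implied length was below that of its mouse exons. Whether this row counts mouse Tnxb alone was not tested. Its counts were 264, 212 and 213 in Ufl1-KO libraries and 164, 93 and 111 in NC libraries. These correspond to 11.5, 11.6 and 9.6 CPM in Ufl1-KO, against 9.85, 5.05 and 7.56 CPM in NC. The groups overlapped, since NC replicate 1 lay above Ufl1-KO replicate 3. The log2 fold change of 0.54 (SE 0.21) just passed the test (edgeR adjusted p = 0.0472). The call ended without any 1 of the 3 Ufl1-KO libraries or NC replicates 2 and 3 (edgeR adjusted p from 0.0591 to 0.126), and without NC replicate 1 the log2 fold change was 0.82 (edgeR adjusted p = 7.12e-05).

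Thrombospondins are calcium-binding glycoproteins. Thrombospondin-1 and -2 form trimers, bind CD36 and CD47 and restrain angiogenesis, and thrombospondin-1 can activate latent TGF-beta. Thrombospondin-3 belongs to the pentameric subgroup. Thbs1 lies on chromosome 2 at 118111876 to 118127133 on the plus strand. It had 159.6, 160.4 and 169 CPM in Ufl1-KO libraries, against 311, 262 and 304 CPM in NC libraries. The groups did not overlap, and the log2 fold change was -0.84 ± 0.08 (SE) with an edgeR adjusted p of 1.92e-05.

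Thbs2, at 14665500 to 14694235 of chromosome 17 (minus strand), had 77.1, 73.2 and 75.9 CPM in Ufl1-KO libraries, against 74.3, 61.9 and 70.1 CPM in NC libraries. NC replicate 1 lay inside the Ufl1-KO range, so the groups overlapped. On the log2 scale Ufl1-KO differed from NC by 0.13 (SE 0.08), with an edgeR adjusted p of 0.169. It was called higher without NC replicate 1 (0.21, edgeR adjusted p = 0.00447) and with library size scaling (0.31, edgeR adjusted p = 0.0088), and also in the 3 fits to log2 FPKM. Per length, Thbs1 stood at 2.09 to 2.25 times the FPKM of Thbs2 in Ufl1-KO libraries and at 4.22 to 4.37 times in NC libraries. The exact two-sided permutation p of that log ratio was 0.1, the smallest possible.

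Thbs3, on chromosome 3 at 89215180 to 89226837 on the plus strand, had 29.0, 29.0 and 27.3 CPM in Ufl1-KO libraries, against 26.0, 30.1 and 30.6 CPM in NC libraries. The Ufl1-KO libraries lay within the NC range. edgeR fitted a log2 difference of -0.02 (SE 0.09) at an adjusted p of 0.835 and its sign turned with library size scaling (0.16, edgeR adjusted p = 0.128). Its whole annotated span of 11658 bases is overlapped on the opposite strand by Mtx1, a mitochondrial import gene. Mtx1 averaged 17.8 CPM in Ufl1-KO and 14.1 CPM in NC (log2 fold change 0.33, edgeR adjusted p = 0.014). With no strand setting given, reads of Thbs3 and Mtx1 cannot be told apart where their exons overlap.

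**Figure D2:**
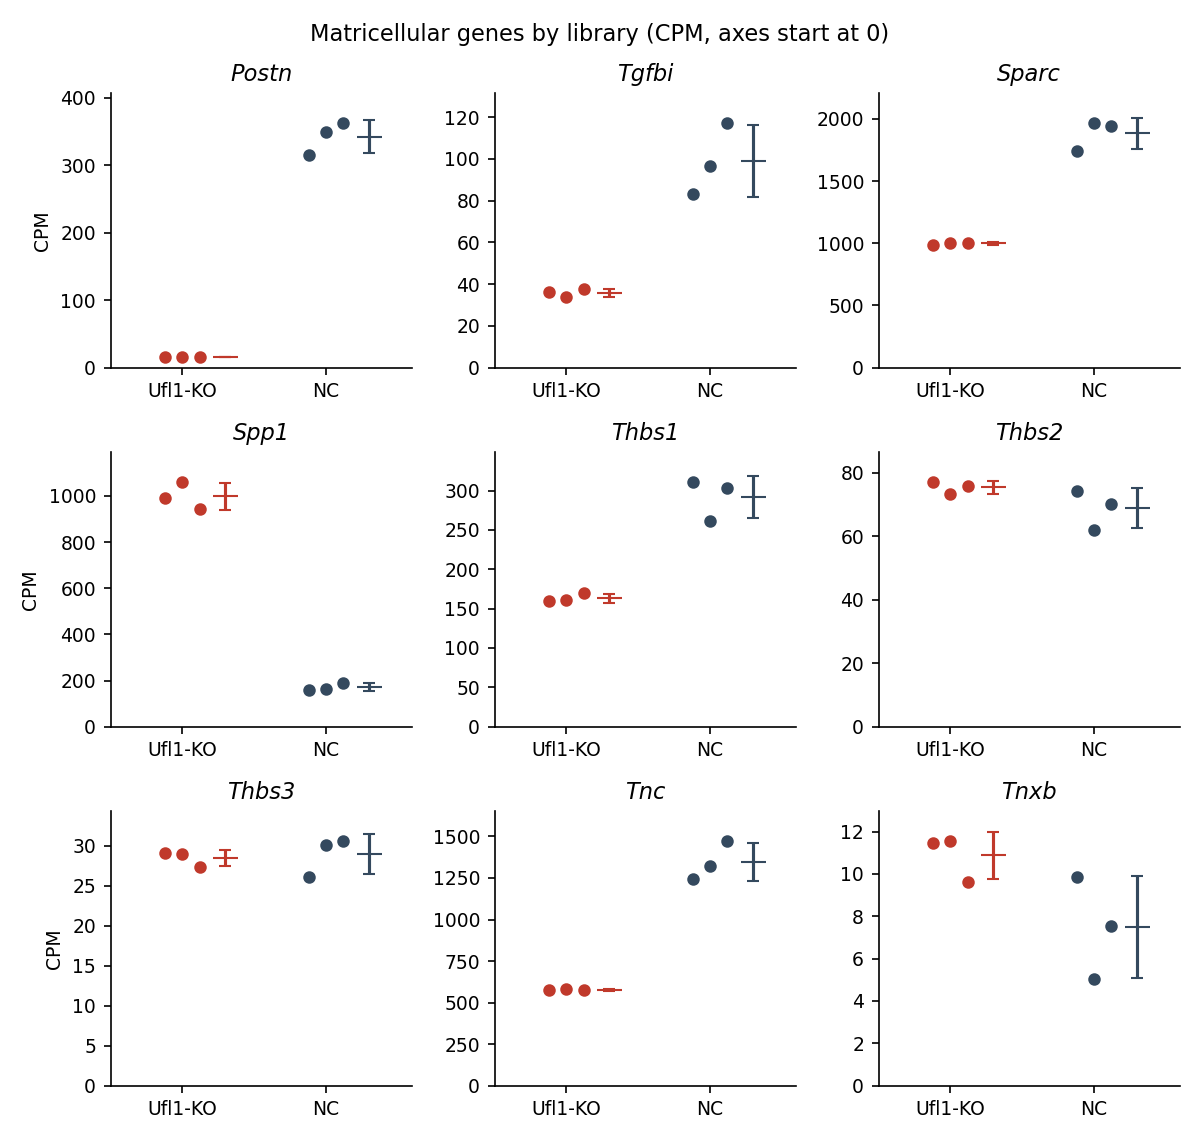
CPM of the 9 matricellular genes in each library, with each axis starting at 0. Points are libraries (Ufl1-KO left, NC right, 3 each), and the bar beside them is the mean ± SD. The groups are apart for Postn, Tgfbi, Sparc, Spp1, Thbs1 and Tnc and overlap for Thbs2, Thbs3 and Tnxb.

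Set side by side per length, the genes changed places. In Ufl1-KO libraries the order of mean FPKM was Spp1 (747 ± 39.3), Sparc (470.4 ± 5.36), Tnc (86.1 ± 0.669), Thbs1 (29.5 ± 1.2), Tgfbi (14.0 ± 0.846), Thbs2 (13.5 ± 0.428), Thbs3 (9.42 ± 0.256), Postn (5.53 ± 0.465) and Tnxb (0.906 ± 0.0847). Of the neighbours in this order, Tgfbi and Thbs2 overlapped between libraries and the others did not. In NC libraries the order was Sparc (787 ± 45.5), Tnc (177 ± 13.5), Spp1 (113 ± 10.6), Postn (107 ± 7.39), Thbs1 (46.7 ± 4.54), Tgfbi (34.0 ± 5.47), Thbs2 (10.9 ± 1.09), Thbs3 (8.58 ± 0.778) and Tnxb (0.553 ± 0.184) (SD, n = 3 each). There Spp1 and Postn overlapped and the other neighbours did not. Spp1 had 122 to 153 times the FPKM of Postn in Ufl1-KO libraries and 0.992 to 1.1 times in NC libraries. Among all 18134 gene names, Spp1 ranked 53 by mean FPKM in Ufl1-KO and 591 in NC, Sparc 106 in Ufl1-KO and 68 in NC, and Postn 8277 in Ufl1-KO and 633 in NC.

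The summed FPKM of the 9 genes overlapped between the groups, while its makeup differed. It was 1364, 1416.5 and 1348 in Ufl1-KO libraries, against 1206, 1299 and 1349 in NC libraries, so NC replicate 3 lay above Ufl1-KO replicate 3. Spp1 made up 54.3%, 55.7% and 52.8% of this sum in Ufl1-KO libraries and 8.81%, 8.25% and 9.27% in NC libraries. Sparc made up 33.2% to 35.3% in Ufl1-KO and 60.04% to 62.9% in NC. Tnc held 6.11% to 6.41% in Ufl1-KO and 13.3% to 14.2% in NC, and Postn 0.363% to 0.443% in Ufl1-KO and 8.19% to 8.4% in NC. Without Spp1 the sum was 624 to 637 FPKM in Ufl1-KO libraries and 1099 to 1224 FPKM in NC libraries. These sums follow the most abundant genes and were not tested. Deposited FPKM values carry no TMM scaling, and the TMM factors were 1.056 to 1.073 in Ufl1-KO and 0.9304 to 0.9528 in NC. Such scaling would lower the Ufl1-KO sums and raise the NC sums, while shares within a library would stay the same.

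**Figure D3:**
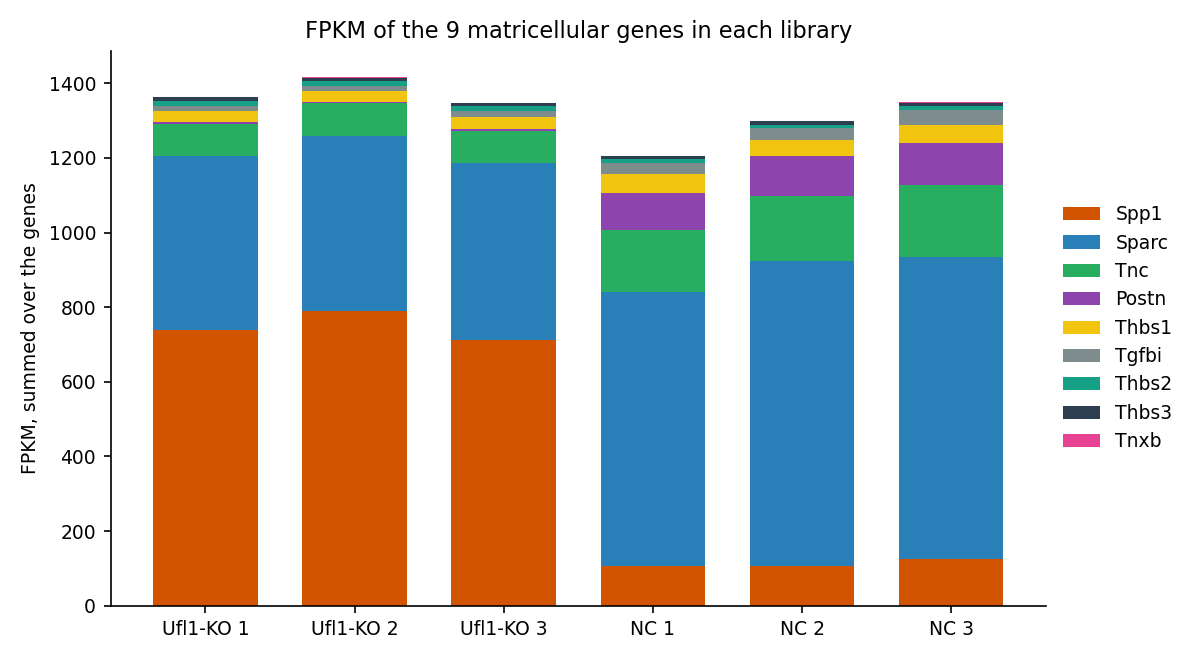
FPKM of the 9 matricellular genes stacked in each library, Ufl1-KO libraries left and NC libraries right, in deposited FPKM units without TMM scaling. The stacks reach 1348 to 1416.5 in Ufl1-KO and 1206 to 1349 in NC. Spp1 is the largest block in the 3 Ufl1-KO libraries and Sparc in the 3 NC libraries.

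Across the 6 libraries, the genes nearest in pattern were found by the root mean square distance between log2 CPM profiles, each centred on its own mean, among 10382 genes. Nearest to Postn were Thsd4, a thrombospondin type 1 domain gene (distance 0.246, log2 fold change -4.91), and Megf6 (distance 0.271, log2 fold change -3.92). Nearest to Spp1 were Ly6a (distance 0.114, log2 fold change 2.74) and SERPINB9, a granzyme B inhibitor (distance 0.12, log2 fold change 2.34). For Tnc they were Appl2 and PKP2, for Tgfbi Dlg4 and Hpcal1, for Sparc Fam160a1 and Mdm4, and for Thbs1 Fhod3 and Il6st, with distances of 0.0165 to 0.056. For Thbs2 they were TENT4A and Pi4k2a, for Thbs3 Elk1 and Antxr1 and for Tnxb Nipa2 and TAF13, with distances of 0.0133 to 0.0878. All these profiles share the same 6 libraries, and the distances are given as a description.

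Of 21 other matricellular genes listed 15 were tested, 13 fell, 1 rose and 1 was not called, where 33.4% of all genes tested fell and 33.3% rose. Their median log2 fold change was -0.93, beside 0.00397 over all genes. Sparcl1 (mean 0.142 CPM in Ufl1-KO, 0.66 CPM in NC) and Ccn5 (0.311 and 1.2 CPM) passed the low-count filter through NC. A call of higher was thus hardly open to them. With a filter of CPM of at least 1 in 3 libraries, 11 of these listed genes fell and 1 rose. Mgp, the matrix Gla protein that inhibits calcification, averaged 2.9 ± 0.134 CPM in Ufl1-KO and 33.1 ± 8.81 CPM in NC (log2 fold change -3.51, SE 0.22). Tnn, a further tenascin, averaged 0.871 ± 0.115 CPM in Ufl1-KO and 8.24 ± 1.78 CPM in NC (-3.24, SE 0.24). Fbln1 (fibulin-1) averaged 31.9 ± 2.01 CPM in Ufl1-KO and 144 ± 12.4 CPM in NC (-2.17, SE 0.09). The gene that rose was Ccn4, a Wnt-inducible member of the CCN family, at 210.5 ± 12.1 CPM in Ufl1-KO and 76.3 ± 27.1 CPM in NC (1.46, SE 0.20). Their adjusted p-values ran from 3.4e-07 to 0.000206 (edgeR).

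Of 18 matrix partners to which matricellular proteins bind, 15 fell, 2 rose and 1 was not called, again beside 33.4% lower and 33.3% higher over all genes. The median log2 fold change of the list was -1.25. COL6A3 averaged 16.2 ± 0.171 CPM in Ufl1-KO and 79.9 ± 3.32 CPM in NC (log2 fold change -2.30, SE 0.07). Col12a1, a fibril-associated collagen whose protein binds tenascins, averaged 193 ± 7.3 CPM in Ufl1-KO and 608 ± 48.1 CPM in NC (-1.65, SE 0.07), and Col3a1 had a log2 fold change of -1.91 (SE 0.09). Higher were Vcan, the proteoglycan versican (0.70, SE 0.06), and Col5a1 (0.28, SE 0.11). The call of Col5a1 was marginal (edgeR adjusted p = 0.0494), and with any 1 of the 3 Ufl1-KO libraries or NC replicates 2 and 3 left out the count of higher genes was 1.

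Of 25 receptors tested, 9 rose, 11 fell and 5 were not called, so that each direction held a share not far from that over all genes (33.3% higher and 33.4% lower). The median log2 fold change was 0.16 and the mean -0.20, and with library size scaling 11 rose and 9 fell. Stab1, counted as lower (mean 0.444 CPM in Ufl1-KO, 1.65 CPM in NC), passed the low-count filter through NC. With a filter of CPM of at least 1 in 3 libraries, 8 receptors rose and 11 fell. Itga11, the alpha subunit of a collagen-binding integrin, averaged 3.61 ± 0.666 CPM in Ufl1-KO and 46.3 ± 5.65 CPM in NC (log2 fold change -3.69, SE 0.15). Itga1, also of a collagen receptor, averaged 5.11 ± 0.506 CPM in Ufl1-KO and 21.04 ± 1.62 CPM in NC (-2.04, SE 0.12), and the syndecan Sdc2 had 104 ± 3.71 CPM in Ufl1-KO and 214 ± 2.36 CPM in NC (-1.04, SE 0.06). Within this list the subunits of known osteopontin receptors were picked out after their values were seen. Cd44 rose, with 479.6 ± 11.5 CPM in Ufl1-KO and 234 ± 13.4 CPM in NC (1.04, SE 0.06, edgeR adjusted p = 2.03e-06). Itgb5 rose (0.50, SE 0.07) and Itgb3 fell (-0.91, SE 0.10), both partners of Itgav, which was not called (0.29, SE 0.14, edgeR adjusted p = 0.0899). Itgb1 (0.20, SE 0.06) and the scarce Itga4 (1.24, SE 0.35) rose, and Itga5 was not called (0.16, SE 0.13). Itga4 averaged 1.00 CPM in Ufl1-KO and 0.425 CPM in NC and passed the low-count filter through Ufl1-KO. A call of lower was thus hardly open to it. Itga8 and Itga9 did not pass the low-count filter.

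Of 19 genes of TGF-beta ligands, receptors and Smads, 9 fell, 3 rose and 7 were not called, with a median of -0.35. In all, 12 of the 19 were called, near the share of 66.7% over all genes. Ltbp2 and Ltbp3, of the family of latent TGF-beta binding proteins, fell (log2 fold changes -1.63, SE 0.07, and -0.84, SE 0.06), and so did the inhibitory Smad7 (-1.32, SE 0.08). Ltbp1 (0.57, SE 0.08), the receptor Tgfbr1 (0.69, SE 0.13) and the repressor Skil (0.44, SE 0.17) rose. The call of Skil was marginal (edgeR adjusted p = 0.0457), and its groups overlapped in CPM. With any 1 of the 3 Ufl1-KO libraries or NC replicates 2 and 3 left out, 2 genes of the list were higher and 9 to 10 lower. Without NC replicate 1 the counts were 11 lower and 6 higher, and with library size scaling 8 lower and 5 higher. Among 16 tested proteases that can cleave matricellular proteins, 5 fell, 4 rose and 7 were not called. These 9 calls are a smaller share than the 66.7% over all genes. The urokinase gene Plau was higher (0.83, SE 0.10), and the matrix metalloproteases Mmp9 (-2.57, SE 0.32) and Mmp3 (-0.68, SE 0.09) were lower. Mmp9 was scarce, at 0.256 CPM in Ufl1-KO and 1.53 CPM in NC, and passed the low-count filter through NC. The median of the protease list was -0.01 and turned to 0.17 with library size scaling, where 3 fell and 6 rose.

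Among 27 transcription factors tested of a list known to act on these genes, 13 fell, 3 rose and 11 were not called, with a median of -0.42. Over all genes 33.4% fell, 33.3% rose and 66.7% were called, a larger share than the 16 of 27 here. Sp7 (mean 0.248 CPM in Ufl1-KO, 0.8 CPM in NC) passed the low-count filter through NC. A call of higher was thus hardly open to it. With a filter of CPM of at least 1 in 3 libraries, 12 fell and 3 rose. Egr1 averaged 95.6 ± 10.1 CPM in Ufl1-KO and 477 ± 30.7 CPM in NC (log2 fold change -2.32, SE 0.09). The AP-1 genes Fos (-2.27, SE 0.14) and Junb (-1.21, SE 0.11) fell as well. Yap1 (0.52, SE 0.08), Srf (0.25, SE 0.09) and Jund (0.43, SE 0.16) rose. Without NC replicate 1, 14 fell and 7 rose, and without any 1 Ufl1-KO library or NC replicate 3, 1 rose.

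**Figure D4:**
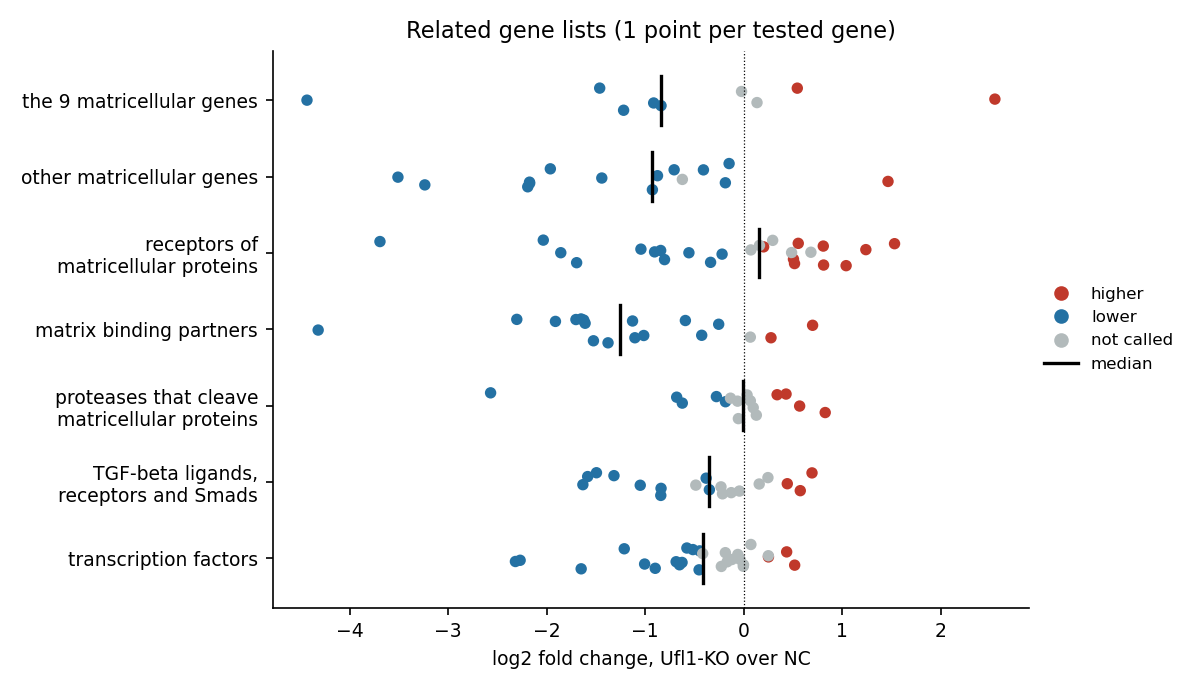
Log2 fold change (Ufl1-KO over NC) of each tested gene in the matricellular set and 6 related lists, with the call in colour and the list median as a black bar. Medians are lowest for the matrix binding partners (-1.25), the other matricellular genes (-0.93) and the 9 genes (-0.84), while the receptors spread to both sides of 0.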

How the data were processed

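The authors deposited estimated counts per gene and FPKM values, 1 column per library. Per the submitters' processing notes, fastp 0.20.1, STAR 2.7.7a and featureCounts 2.0.0 were used, and the builds mm10, hg38 and GRCh38 are named without a role. No source used here gives the annotation, the strand setting or the tool behind fractional values. In a library, 7.29% to 8.09% of the 22274 rows deviated from whole numbers by over 0.001, and the deposited estimated counts were rounded. The rows of the 9 genes held whole numbers. Rows with no gene name (1225, 0.594% to 0.661% of counts) were left out, and rows sharing a name, ignoring case, were summed.

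The main model was edgeR's quasi-likelihood fit (edgeR 4.0.16, R 4.3.3) of genotype alone, with TMM scaling, filterByExpr and Benjamini-Hochberg adjustment over 12224 genes (threshold 0.05, two-sided). CPM values use TMM-scaled totals. The SE of an edgeR log2 fold change was derived as its absolute value over the square root of the quasi-likelihood F statistic. Alternatives used other scalings and filters, DESeq2 1.42.0, limma 3.58.1 (voom, or log2 of FPKM plus 1 or 0.1), a replicate block, rows kept apart, a fold change of 1.5 as the null, and each library left out in turn. Deposited FPKM values served to compare levels between genes. Promoter sequences came from RefSeq (GRCm38.p6) and gene positions from GENCODE M21 (mm10). Protein sequences were not analysed here.

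The 9 genes and the lists were chosen with earlier results of these data known. Besides the 9, the text names the 3 called genes with the smallest p in each list, list genes called against the majority where there were at most 3, and the 2 genes nearest in pattern to each of the 9. Marker genes of cell types are given as checks. Ufl1 is named as a check on the labels. Genes whose span overlaps one of the 9 are named as well, as are scarce list genes that passed the low-count filter through a single group. The osteopontin receptor subunits fall outside this rule, as the text says. Figures used Python 3.11.15 and matplotlib 3.10.9.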

Additional observations from a re-analysis of the deposited data

How the results depend on the processing

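Over all 19 alternatives Postn, Tgfbi, Tnc, Sparc and Thbs1 stayed called lower and Spp1 called higher. Their log2 fold changes ran from -4.48 to -4.04 for Postn, -1.56 to -1.22 for Tgfbi, -1.26 to -1.03 for Tnc, -0.96 to -0.74 for Sparc, -0.91 to -0.64 for Thbs1 and 2.51 to 2.73 for Spp1. The sign of Thbs3 turned with library size scaling (0.16), in the FPKM fits (0.12 with a pseudocount of 1, with and without a filter, and 0.14 with 0.1) and without Ufl1-KO replicate 3, NC replicate 2 or NC replicate 3 (0.00822, 0.0137 and 0.0262). It lay between -0.0823 and 0.0262 with each library left out in turn. It was called in none of the 19, with adjusted p from 0.128 to 1.

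Against a fold change of 1.5, 1214 genes were higher and 1587 lower (22.9% of those tested). Of the 9 genes 1 was higher and 5 lower. In that fit the other matricellular genes had 7 lower, the receptors 4 higher, the matrix partners 0 higher, the proteases 1 higher and 1 lower, the TGF-beta list 0 higher and the transcription factors 0 higher and 6 lower; fewer calls follow from the stricter null. With library size scaling 3 proteases were lower and 5 TGF-beta genes higher, and upper-quartile scaling also gave 5 higher TGF-beta genes. In the 3 FPKM fits 3 proteases were lower and 5 TGF-beta genes higher, and 7 proteases were higher with a pseudocount of 0.1 or without a filter. With a CPM of at least 1 in 3 libraries, or with rows kept apart, 1 matrix partner was higher. The cause of these shifts was not tested.

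With each library left out in turn, the 9 genes had 1 to 3 higher, the matrix partners 1 to 2 higher, the TGF-beta list 2 to 6 higher and the transcription factors 1 to 7 higher. No pairing of the libraries by replicate number was visible. Deviations of same-numbered libraries correlated at 0.0371, -0.267 and 0.0652, and 2 of 6 libraries correlated best with their own number. Correlations over so few libraries cannot show whether same-numbered libraries were prepared together. With the replicate block 3892 genes were higher and 3910 lower, 2 of the 9 genes were higher and 5 lower, and no call among the 9 changed. Tnxb had 93 to 264 counts per library, and its CPM had a coefficient of variation of 10.1% in Ufl1-KO and 32.1% in NC.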
